A study of Mus musculus with 72 samples.

Results

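Platelets are cell fragments without a nucleus that megakaryocytes shed into the blood, and they keep a store of RNA from the parent cell. The genes Pf4, Ppbp, Itga2b, Itgb3, Gp9, Gp1ba, Gp1bb, Gp6 and Tubb1 mark this lineage among blood cells. Pf4 and Ppbp encode chemokines that are stored in the alpha granules and released on activation. Itga2b and Itgb3 encode the chains of the fibrinogen receptor that lets platelets aggregate, Gp9, Gp1ba and Gp1bb encode subunits of the receptor that catches von Willebrand factor, Gp6 encodes the collagen receptor, and Tubb1 encodes the beta tubulin of the ring of microtubules that gives the platelet its disc shape. Megakaryocytes in the bone marrow divide little and their progenitors are sensitive to radiation, so the platelet count is known to fall with a delay after exposure, while lymphocytes are lost early.

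These 9 genes were taken by their gene name on the array, and all 9 had a probe that was detected, out of 16098 genes with a detected probe. All 9 also varied enough to be among the 10863 genes tested. The probe used for each of them was well above background on 72 of 72 arrays and saturated on 0. For Itgb3 and Gp1bb, which have several probes, the brightest detected probe was used.

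The blood came from male C57BL/6 mice that were sham-irradiated, exposed to 0.25 or 1 Gy of neutrons, or exposed to 1 or 4 Gy of x-rays, and bled 1, 3 or 7 days later. The neutron field imitates the spectrum of an improvised nuclear device and carries a gamma-ray part, the x-rays were orthovoltage x-rays, and the sham controls were kept in the mouse holders of the neutron wheel while the beam was off. Whether the x-ray mice were handled in the same way is not given in the sources used here. The groups of day 3 are known from the labels alone, since the methods describe days 1 and 7. Each array held the RNA of 1 mouse, drawn by cardiac puncture into a solution that lyses all blood cells, and globin transcripts were removed before labelling. There were 5 control mice on day 1, 5 on day 3 and 6 on day 7. The 0.25 Gy neutron groups held 6, 6 and 5 mice on days 1, 3 and 7, and the 1 Gy neutron groups held 6 mice on day 1 and 6 on day 7. The 1 Gy x-ray groups held 6, 5 and 5 mice on days 1, 3 and 7, and the 4 Gy x-ray groups held 5 mice on day 1 and 6 on day 7. Since whole blood was lysed, fewer cells of a type and less RNA per cell cannot be told apart. The level of a transcript was the log2 of the background-corrected intensity of its probe, minus the median of the detected probes of the same array, so that a level of 8 lies 8 doublings above that median. Levels were never compared between probes, and values are given with the standard error of the limma fit. A gene was called changed when limma gave a p below 0.001 and a Benjamini-Hochberg adjusted p below 0.05 over all genes tested. Each exposure was set against the control mice of its day, so comparisons of 1 day share their controls.

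The signals of the arrays were weakest after 1 Gy of neutrons on day 7. There the median signal of all probe spots, before any filter, was between 9.52 and 16.8 intensity units. In the control mice of that day it was 32.2 to 50.5. The share of probes well above background was 40.2 to 50.3% in those neutron mice and 54.3 to 63.9% in those controls. This group is also the one in which the choice of scaling mattered most for the platelet genes, as described with its results.

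The 60-base probes of Itga2b, Gp1bb and Tubb1 are shown because they read the coding sequence of a receptor chain of each kind and of the platelet tubulin, and because the latter 2 genes gave some of the largest changes. The Gp1bb probe lies at chr16:18621107-18621166 on the minus strand and the Tubb1 probe at chr2:174283277-174283336 on the plus strand (mm9, per the array files), and the files give no position for the Itga2b probe.
Itga2b probe: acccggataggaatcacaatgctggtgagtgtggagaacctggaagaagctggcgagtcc
Gp1bb probe: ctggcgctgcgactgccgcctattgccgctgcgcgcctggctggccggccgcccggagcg
Tubb1 probe: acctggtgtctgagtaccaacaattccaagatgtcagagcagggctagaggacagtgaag

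Promoters were looked at because megakaryocyte genes are known targets of GATA1, which binds GATA motifs, and of ETS factors, which bind GGAA. RefSeq (GRCm38.p6) gave a promoter for 8 of the 9 genes, and the 250 bases before the start were searched for GATAA or its reverse complement TTATC. A match was found in 3 of 8 promoters, with 2 matches in Gp1ba, 1 in Gp9 and 1 in Gp6, against 22.6% of 32851 promoters of the same length. GGAA or its reverse complement TTCC was found in 8 of 8 of these promoters and in 93.4% of all of them, so that this motif did not set them apart. The promoter with the most GATAA matches and the promoter of Pf4, which has 0, are shown with the matches on either strand in capitals; the Gp1ba sequence lies at chr11:70638872-70639101 and the Pf4 sequence at chr5:90772185-90772434, both on the plus strand. The Pf4 sequence ends at the base before the start, and the Gp1ba sequence is shown only as far as the span of the gene in RefSeq begins, which is short of the start that was used. The starts used for Gp9 and Gp6, the other genes with a GATAA match, also lie inside the span of the gene. All bases searched for Gp9, with its match, lie within that span. For Gp6, 143 of the bases searched lie outside it, and its match is among them. The genes whose start lies at the end of their span had no GATAA match.
Gp1ba promoter: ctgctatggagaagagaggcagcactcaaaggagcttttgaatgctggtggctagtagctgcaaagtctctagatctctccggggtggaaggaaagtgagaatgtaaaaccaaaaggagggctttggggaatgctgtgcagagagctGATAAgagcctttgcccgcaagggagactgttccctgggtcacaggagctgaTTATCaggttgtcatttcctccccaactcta
Pf4 promoter: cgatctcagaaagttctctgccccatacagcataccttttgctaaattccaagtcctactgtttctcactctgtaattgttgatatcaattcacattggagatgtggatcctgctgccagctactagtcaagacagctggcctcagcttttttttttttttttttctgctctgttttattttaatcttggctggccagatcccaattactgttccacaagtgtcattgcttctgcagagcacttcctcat

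In the control mice the mean level of the 9 genes was 4.30 to 5.22 on day 1 (median 4.53), 4.11 to 4.57 on day 3 (median 4.16) and 2.85 to 4.79 on day 7 (median 4.34). The controls of day 7 were thus the most spread, and mice 5 and 6 of that group were the lowest of it, at 2.85 and 3.61. Mice 5 and 6 shared a slide and mice 1 to 4 were on another. Slide and the low level of those mice can thus not be told apart among these controls. From day 1 to day 7, all 9 genes had a negative log2 fold change in the controls, with a median of -0.45 against 0.06 over all genes tested. None of the 9 was called, while 5.18% of all genes were. Itga2b (-0.95 ± 0.34, adjusted p = 0.0629), Tubb1 (-0.91 ± 0.45, adjusted p = 0.158) and Gp1ba (-0.90 ± 0.32, adjusted p = 0.0625) had the largest of these differences. The controls of each day were scanned on a date of their own, so scan date and day cannot be told apart here.

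**Figure D1:**
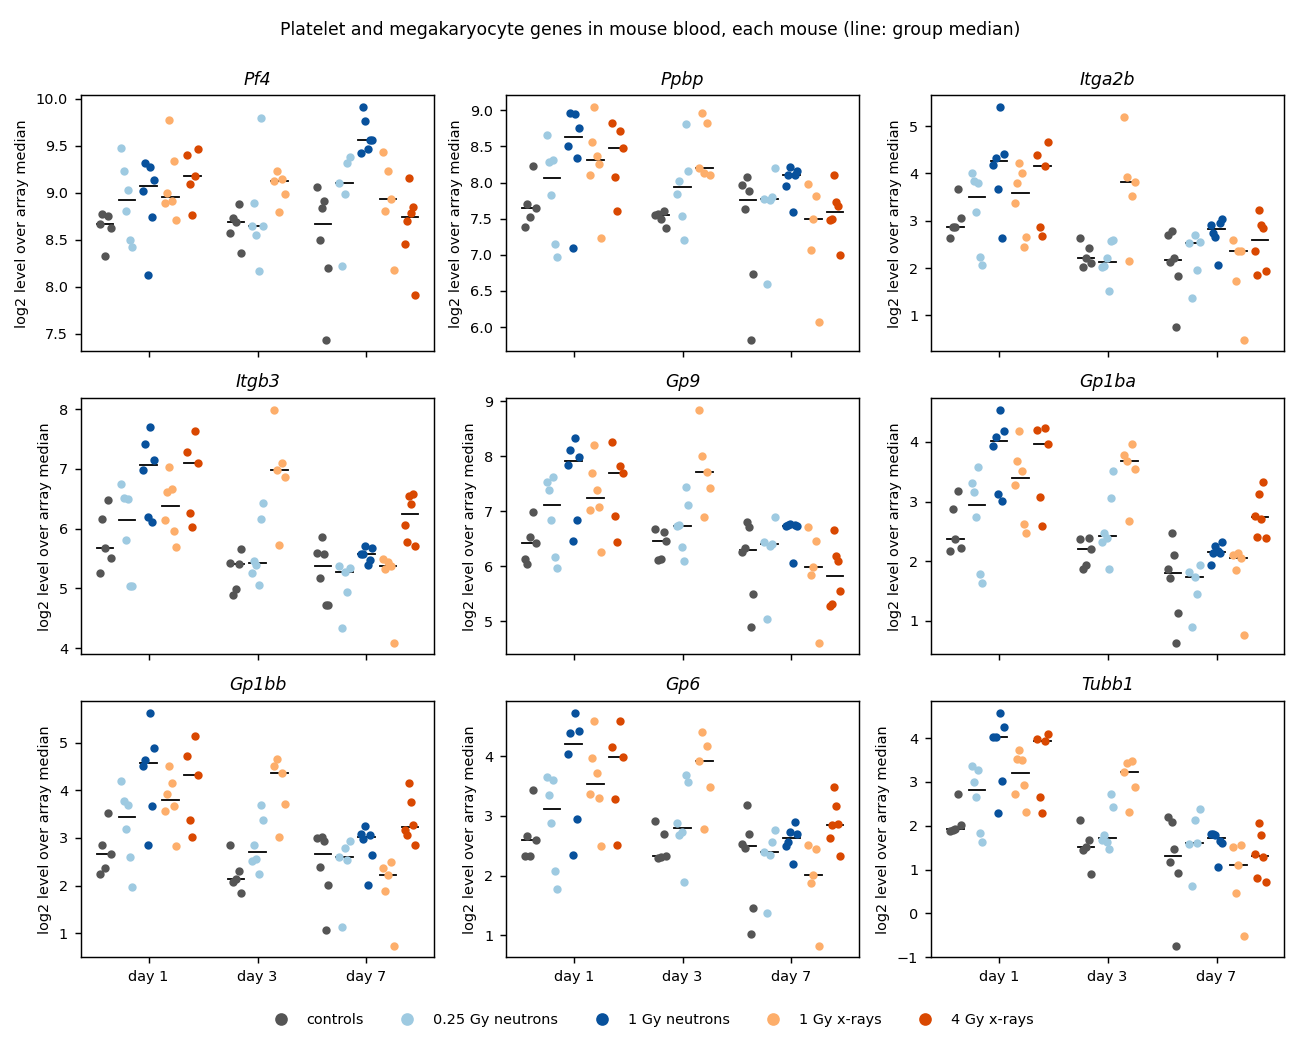
Level of each of the 9 platelet genes in every mouse (points, log2 above the array median on the vertical axis) by exposure and day (horizontal axis), with a line at the group median. Gp1bb and Tubb1 lie higher in most irradiated mice than in the controls on days 1 and 3, while on day 7 only Pf4 after 1 Gy of neutrons lies above every control mouse.

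On day 1, platelet transcripts were higher after 1 Gy of neutrons. All 9 genes had a positive log2 fold change, with a median of 1.14 against 0.05 over all genes tested. None of the 9 passed both thresholds of a call, which 17.5% of all genes did, although 8 had an unadjusted p below 0.05 by limma, and 7 of 9 had an adjusted p below 0.05, against 22.5% of all genes that did so in the same direction. The order of the genes by size ran from Gp1bb and Tubb1, a subunit of the von Willebrand factor receptor and the platelet tubulin, down to the granule chemokine Pf4.

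Gp1bb in the 5 controls of day 1 was at 2.25, 2.86, 2.37, 3.53 and 2.66 in mice 1 to 5, and in the 6 mice given 1 Gy of neutrons its lowest level was 2.86, its median 4.59 and its highest 5.63. Of the 6 neutron mice, 5 lay above every control. The difference was 1.64 ± 0.43 on the log2 scale, or 3.12-fold (adjusted p = 0.01). Tubb1 was at 1.88, 1.91, 1.92, 2.72 and 2.02 in the controls and at 4.02, 4.02, 2.30, 4.58, 3.02 and 4.27 in neutron mice 1 to 6. Mouse 3 was the only neutron mouse not above every control, and the difference was 1.61 ± 0.38, or 3.05-fold (adjusted p = 0.00591).

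The other von Willebrand factor receptor subunits, Gp1ba (1.25 ± 0.31, adjusted p = 0.00758) and Gp9 (1.17 ± 0.35, adjusted p = 0.0169), were close to each other. The chains of the fibrinogen receptor were at 1.11 ± 0.33 for Itgb3 (adjusted p = 0.0178) and 1.09 ± 0.40 for Itga2b (adjusted p = 0.0409), and the collagen receptor gene Gp6 at 1.14 ± 0.42 (adjusted p = 0.0406). The granule chemokines did not pass, with Ppbp at 0.74 ± 0.32 (adjusted p = 0.0752) and Pf4 at 0.31 ± 0.23 (adjusted p = 0.277). Pf4 was at 8.33 to 8.78 in the controls and 8.13 to 9.32 in the neutron mice, so that these groups overlapped.

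Mice 3 and 5 had the lowest mean level of the 9 genes in the 1 Gy neutron group of day 1. Without mouse 3, 5 of the 9 genes were called, and without mouse 5, 3 were. On this day mice 1 to 4 of the group were scanned on the same date as the controls, and with those mice alone 6 of 9 genes had an adjusted p below 0.05. The number called was 8 with the spike-in probes and 5 with slide as a random block, and with the normexp correction 1 gene had an adjusted p below 0.05.

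After 4 Gy of x-rays on day 1 the 9 genes again all had a positive log2 fold change, with a median of 1.03 against 0.00 over all genes. None was called, against 35.1% of all genes, while 8 had an unadjusted p below 0.05 by limma, and 7 of 9 had an adjusted p below 0.05, against 31.2% of all genes in the same direction. Gp1bb was at 4.73, 3.38, 3.02, 5.15 and 4.32 in mice 1 to 5, and its difference from the controls was 1.39 ± 0.41 (adjusted p = 0.0103). Tubb1 was at 3.98, 2.67, 2.28, 3.94 and 4.10, a difference of 1.30 ± 0.37 (adjusted p = 0.00882). In both genes mice 1, 4 and 5 lay above every control and mice 2 and 3 did not. Ppbp (0.64 ± 0.27, adjusted p = 0.0541) and Itga2b (0.73 ± 0.39, adjusted p = 0.123) did not pass. Without mouse 3, 2 of the 9 genes were called, and without mouse 1, 4 of 9 had an adjusted p below 0.05. No mouse of this group was scanned on a date of the controls, so scan date and exposure cannot be told apart here. The number with an adjusted p below 0.05 was 0 with the normexp correction and 2 with the 75th percentile, and 3 genes were called with the spike-in probes.

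The smaller x-ray dose of 1 Gy gave a median log2 fold change of the 9 genes of 0.73 on day 1, against -0.01 over all genes, and all 9 were positive. None was called, against 7.65% of all genes, while 6 had an unadjusted p below 0.05, and 2 of 9 had an adjusted p below 0.05, against 9.42% in the same direction over all genes. These were Gp1bb (1.04 ± 0.30, adjusted p = 0.0317) and Tubb1 (1.03 ± 0.27, adjusted p = 0.0217). In both, 5 of the 6 irradiated mice lay above every control. Without mouse 6, 2 of the 9 genes were called, and 5 had an adjusted p below 0.05. That second count fell to 0 without control mouse 2, 3 or 5, to 1 without control mouse 1 or without irradiated mouse 2, 4 or 5, and was 4 without control mouse 4. The irradiated mice and the controls shared no scan date, so the effects of the date and of the dose cannot be told apart. With scan date or slide as a random block the second count was 0, as it was with the normexp correction, the spike-in probes and no detection filter.

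After 0.25 Gy of neutrons on day 1 the 9 genes were positive as well, with a median of 0.22 against 0.12 over all genes. None was called, against 0.00921% of all genes, 0 had an unadjusted p below 0.05, and the smallest adjusted p was 0.43, for Tubb1 (0.53 ± 0.34). No member had all of the irradiated mice above the controls.

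**Figure D2:**
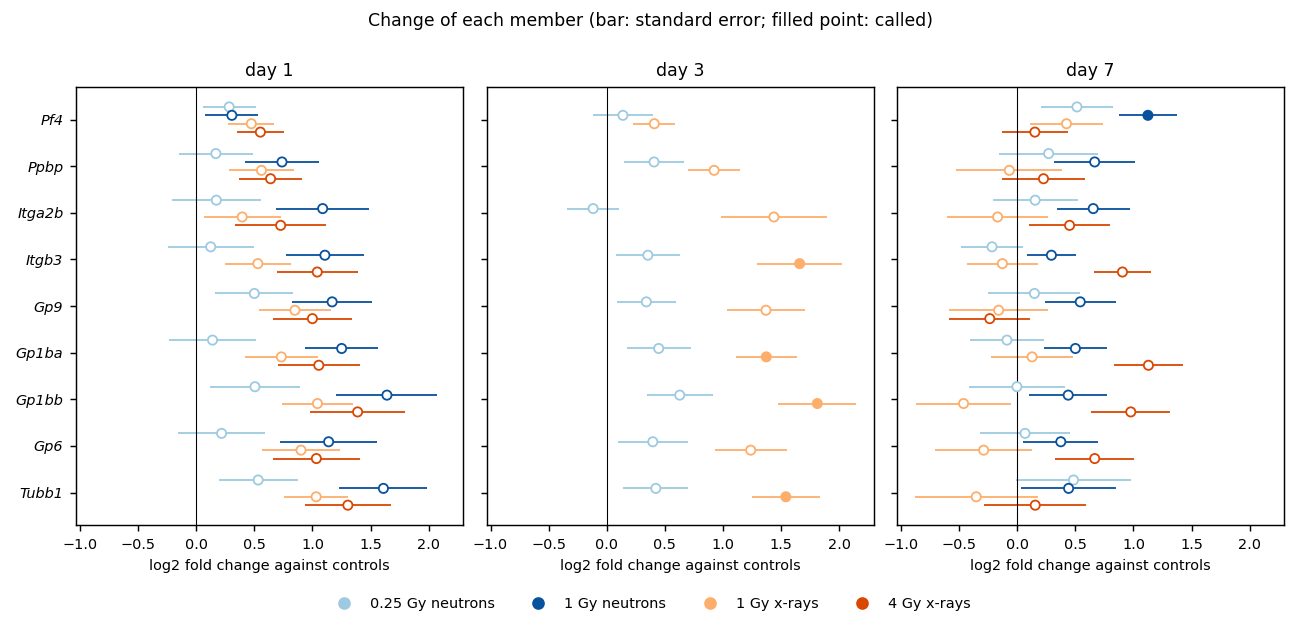
Log2 fold change of each of the 9 genes against the controls of the same day (horizontal axis, with bars of 1 standard error) for the 10 comparisons, with called genes filled. On the array median scaling all 9 genes lie right of 0 in the 4 comparisons of day 1 and after 1 Gy of x-rays on day 3; after 1 Gy of neutrons on day 7 they also do, but all 9 lie left of 0 when the arrays are centred on the spike-in probes.

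On day 3, 1 Gy of x-rays gave the clearest change of the platelet genes. The von Willebrand factor receptor genes Gp1bb and Gp1ba, the fibrinogen receptor gene Itgb3 and the tubulin gene Tubb1 were called higher, 4 of 9 genes against 1.91% of all genes. All 9 genes were positive, with a median of 1.37 against 0.00 over all genes. In 6 of the 9 every irradiated mouse lay above every control, as it did in 5.82% of all genes.

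Gp1bb was at 4.52, 4.67, 3.02, 4.36 and 3.72 in irradiated mice 1 to 5, and at 2.85, 2.08, 2.14, 2.31 and 1.85 in the 5 controls. The groups did not overlap, and the gene was 3.51-fold higher (log2 difference 1.81 ± 0.34, adjusted p = 0.0404). Gp1ba was at 3.78, 3.68, 2.67, 3.97 and 3.55 in the irradiated mice and at 2.37, 1.88, 1.94, 2.39 and 2.20 in the controls. It was 2.59-fold higher (1.37 ± 0.26, adjusted p = 0.0404), again with no overlap.

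Itgb3, the beta chain of the fibrinogen receptor, was at 7.99, 6.98, 5.73, 7.09 and 6.87 in the irradiated mice and at 5.43, 4.89, 5.00, 5.40 and 5.65 in the controls. The lowest irradiated mouse, mouse 3, was just above the highest control, and the gene was 3.16-fold higher (1.66 ± 0.37, adjusted p = 0.049). Tubb1 was at 3.23, 3.44, 2.32, 3.47 and 2.89 in the irradiated mice and at 2.13, 1.43, 1.51, 1.66 and 0.90 in the controls, a 2.91-fold difference (1.54 ± 0.29, adjusted p = 0.0404). Mouse 3 was the lowest irradiated mouse in all 4 of these genes.

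The remaining genes were positive but not called. The granule chemokine Ppbp was at 8.21, 8.97, 8.13, 8.82 and 8.10 in the irradiated mice and at 7.56, 7.57, 7.50, 7.61 and 7.38 in the controls, without overlap (0.92 ± 0.22, adjusted p = 0.0555). Gp9 ranged from 6.90 in irradiated mouse 3 to 8.84 in mouse 1, and from 6.12 to 6.68 in the controls, also without overlap (1.37 ± 0.33, adjusted p = 0.0556). Gp6 (1.24 ± 0.31, adjusted p = 0.0592) and Itga2b (1.44 ± 0.46, adjusted p = 0.105) each had 4 of 5 irradiated mice above every control. Pf4 had the smallest difference, 0.41 ± 0.18 (adjusted p = 0.211).

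The 4 calls of day 3 lay close to the adjusted threshold. Without irradiated mouse 3, 7 of the 9 genes were called and 8 had an adjusted p below 0.05, while without irradiated mouse 2, 4 or 5, or without control mouse 2, 3, 4 or 5, both counts were 0, and without control mouse 1 Itgb3 was not called (1.70). The log2 differences themselves stayed between 1.66 and 2.07 for Gp1bb, 1.26 and 1.59 for Gp1ba, 1.40 and 1.96 for Itgb3, and 1.39 and 1.73 for Tubb1 when 1 mouse was left out. Scaled to the spike-in probes, all 4 were positive but not called, with Gp1bb at 1.06 and Gp1ba at 0.62, while the median of all genes then shifted by -0.75. The irradiated mice and their controls shared no scan date.

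A second detected probe of Itgb3 gave 2.07 ± 0.48 on day 3 (adjusted p = 0.0613) and a second probe of Gp1bb gave 2.16 ± 0.51 (adjusted p = 0.0618), each larger than that of the probe used. These probes were well above background on 70 and 66 of the 72 arrays. The probes differed more elsewhere. The second Itgb3 probe gave 0.50 after 1 Gy of neutrons on day 1, where the probe used gave 1.11, and 1.08 on day 7, where the probe used gave 0.29. The second Gp1bb probe gave -0.22 on day 7 against 0.44 for the probe used. In RefSeq the Gp1bb gene overlaps Septin5. The probe positions are on another genome build (mm9) than RefSeq (GRCm38.p6), so whether the Gp1bb probe used also reads Septin5 transcripts was not tested.

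After 0.25 Gy of neutrons on day 3, 8 of the 9 genes were positive, with a median of 0.40 against 0.03 over all genes. None was called, against 1.17% of all genes, and 1 had an unadjusted p below 0.05. Gp1bb had the smallest adjusted p (0.63 ± 0.28, adjusted p = 0.193), and Itga2b was the gene below 0 (-0.12 ± 0.22).

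On day 7 the pattern was different. The granule chemokine Pf4 was the 1 member called after 1 Gy of neutrons, against 38.4% of all genes. Pf4 was at 9.42, 9.91, 9.77, 9.47, 9.57 and 9.56 in neutron mice 1 to 6 and at 9.07, 8.50, 8.84, 8.91, 7.44 and 8.20 in control mice 1 to 6. Every neutron mouse lay above every control in this 1 of 9 genes, as in 22.9% of all genes. The difference was 1.12 ± 0.25, or 2.18-fold (adjusted p = 0.00181), while the median of all genes was 0.31.

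The sign of this Pf4 difference depended on the scaling. It was 1.12 with the array median and 0.98 with the 75th percentile, but -0.32 with quantile normalization, -0.38 with the normexp background correction and -0.92 with the spike-in probes. The median of all genes shifted by -1.74 with the spike-in probes, so that Pf4 fell less than most genes on that scale. On the array median scale Pf4 was also not called when any 1 of the 6 neutron mice or control mouse 2 or 6 was left out, although the difference stayed between 0.91 and 1.24. Only 1 of the 6 neutron mice was scanned on the date of the controls. With scan date as a fixed block the difference was 0.93 (adjusted p = 0.163), with slide as a random block 1.16 (adjusted p = 0.00362) and with the replicate number as a block 1.12 (adjusted p = 0.0075), and in none of these was Pf4 called.

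The other 8 genes differed by 0.29 to 0.67 after 1 Gy of neutrons on day 7, with adjusted p between 0.0911 and 0.376. Itgb3 was at 5.39 to 5.71 in the neutron mice and 4.72 to 5.86 in the controls, and Gp1ba at 1.93 to 2.32 and 0.64 to 2.48, so that the neutron mice lay within the range of the controls in both. The median of the 9 genes was 0.50 with the array median, 0.35 with the 75th percentile, 0.17 with quantile normalization and -1.55 with the spike-in probes, on which scale all 9 were negative. Without neutron mouse 4, 2 of the 9 genes had an adjusted p below 0.05, and without control mouse 3, 3 did.

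**Figure D3:**
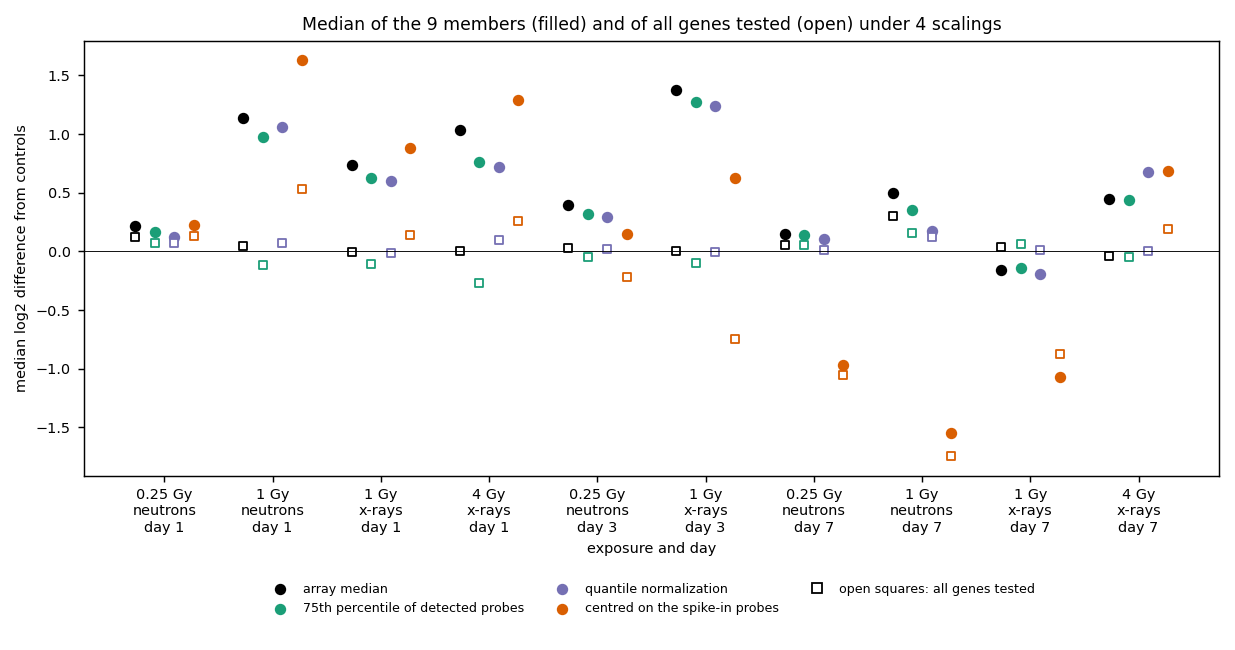
Median log2 fold change (vertical axis) of the 9 platelet genes (filled) and of all genes tested (open) in the 10 comparisons with the controls (horizontal axis) under 4 scalings of the arrays. On days 1 and 3 the members lie above all genes and above 0 under each scaling; after 0.25 and 1 Gy of neutrons on day 7 they are positive under 3 scalings and negative with the spike-in probes, where all genes shift by -1.06 and -1.74.

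After 4 Gy of x-rays on day 7, 3 receptor genes were higher, while the other receptor genes, the tubulin gene and the granule chemokines did not pass. Gp1ba (1.13 ± 0.29, adjusted p = 0.00933), Itgb3 (0.91 ± 0.25, adjusted p = 0.0114) and Gp1bb (0.98 ± 0.34, adjusted p = 0.0366) had an adjusted p below 0.05, 3 of 9 genes against 17.9% of all genes in that direction. None was called, against 17.6% of all genes, 3 had an unadjusted p below 0.05, and without control mouse 3, 1 was called. Gp1bb was at 3.17, 3.07, 4.15, 3.76, 3.28 and 2.86 in the x-ray mice, 5 of which lay above the highest control at 3.02. The second probes gave 0.79 ± 0.44 for Gp1bb (adjusted p = 0.18) and 0.94 ± 0.53 for Itgb3 (adjusted p = 0.181). Pf4 was at 7.91 to 9.16 in the x-ray mice and 7.44 to 9.07 in the controls (0.15 ± 0.28, adjusted p = 0.698), and Gp9 differed by -0.24 ± 0.35 (adjusted p = 0.612). Gp6 differed by 0.67 ± 0.34 (adjusted p = 0.136) and Itga2b by 0.45 ± 0.35 (adjusted p = 0.32). The x-ray mice and the controls of that day were scanned on different dates, which cannot be told apart from the exposure.

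On day 7 after 1 Gy of x-rays, 2 of the 9 genes were positive, Pf4 (0.42 ± 0.31) and Gp1ba (0.13 ± 0.35), and the median was -0.16 against 0.04 over all genes. None was called, against 4% of all genes. After 0.25 Gy of neutrons on day 7 the median was 0.15 against 0.06 over all genes, and none was called, against 0.0276% of all genes. In both of these comparisons 0 members had an unadjusted p below 0.05. With the spike-in probes the median of the 9 genes was -1.07 after 1 Gy of x-rays and -0.96 after 0.25 Gy of neutrons. The standard errors of the 9 genes were 0.30 to 0.53 after 1 Gy of x-rays, so that small differences in either direction were not detectable.

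The change of an effect between days was tested directly. The controls of each day were scanned on a date of their own. Except for 0.25 Gy of neutrons on days 1 and 7, some or all irradiated mice were scanned on other dates than their controls. Scan date and the change between days can then not be fully told apart. The effect of 1 Gy of x-rays on Gp1bb was smaller on day 7 than on day 3 by 2.27 ± 0.55 on the log2 scale (adjusted p = 0.0327), the 1 member called, against 2.46% of all genes. Itgb3 had a difference of -1.79 ± 0.49 (adjusted p = 0.0447) that was not called, and Tubb1 one of -1.89 ± 0.65 (adjusted p = 0.0916). Pf4 had none of this pattern, at 0.01 ± 0.37. The Gp1bb call was lost with any 1 of 12 of the 21 mice left out, namely x-ray mice 2 and 5 and control mice 1, 3 and 4 of day 7, and x-ray mice 1, 2 and 4 and control mice 2, 3, 4 and 5 of day 3, with values between -2.54 and -1.97 over all 21. Without control mouse 5 of day 7 or x-ray mouse 3 of day 3, 2 members were called.

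The other changes between days gave no called member. For 1 Gy of neutrons from day 1 to day 7, where 28.7% of all genes were called, Gp1bb changed by -1.20 ± 0.57 (adjusted p = 0.0821) and Pf4 by 0.82 ± 0.34 (adjusted p = 0.0519). For 4 Gy of x-rays from day 1 to day 7, where 22.4% were called, Gp9 changed by -1.24 ± 0.51 (adjusted p = 0.0517). For 1 Gy of x-rays, 8.68% of all genes were called from day 1 to day 7 and 2.49% from day 1 to day 3, and Gp1bb changed by -1.51 ± 0.53 (adjusted p = 0.0504) in the former. For 0.25 Gy of neutrons the shares were 1.32% from day 1 to day 7, 0% from day 1 to day 3 and 2.14% from day 3 to day 7. In the controls 0% of all genes were called from day 1 to day 3 and 2.34% from day 3 to day 7, with no member among them. Unadjusted p by limma were below 0.05 for 3 members from day 1 to day 7 after 1 Gy of x-rays, 2 after 1 Gy of neutrons, 1 after 4 Gy of x-rays and 0 after 0.25 Gy of neutrons.

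Neutrons and x-rays were also set against each other. In these comparisons and those between doses, some mice of the groups compared were scanned on different dates. Scan date and exposure can then not be fully told apart. On day 1 no member was called between 1 Gy of neutrons and 1 Gy of x-rays (9.05% of all genes called) or 4 Gy of x-rays (0.0552%), nor between 4 and 1 Gy of x-rays (17.6%) or 1 and 0.25 Gy of neutrons (1.35%). The smallest adjusted p of a member in these was 0.225, 0.598, 0.247 and 0.115, and the number with an unadjusted p below 0.05 by limma was 0, 0, 0 and 4. The last was that of Gp1ba, which was higher by 1.11 ± 0.39 after 1 Gy than after 0.25 Gy of neutrons, with 4 of 6 mice above every mouse of the lower dose. Between 1 Gy of neutrons and 4 Gy of x-rays, Itgb3 differed by 0.07 ± 0.38 and Gp6 by 0.11 ± 0.48.

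Some members were higher and others lower after 1 Gy of neutrons than after 4 Gy of x-rays on day 7. Of the 6 neutron mice, only mouse 6 was scanned on the date of the x-ray mice. The median signal of the arrays was 9.52 to 16.8 in the neutron mice and 46.2 to 96.4 in the x-ray mice. On the array median scale Pf4 was higher after 1 Gy of neutrons than after 4 Gy of x-rays (8.46, 8.70, 9.16, 8.79, 8.85 and 7.91 in x-ray mice 1 to 6), and every neutron mouse lay above every x-ray mouse. The difference was 0.97 ± 0.20 (adjusted p = 0.000835), the 1 member called, against 41.9% of all genes, and 29.3% of all genes had every neutron mouse above every x-ray mouse. It was 0.84 with the 75th percentile, but -1.03 with quantile normalization and -1.31 with the spike-in probes, where the median of all genes was -2.02. Gp9, a subunit of the von Willebrand factor receptor, went with Pf4 (0.78 ± 0.25, adjusted p = 0.0133), with 5 of 6 neutron mice above every x-ray mouse, and its sign turned with quantile normalization (-0.28) and with the spike-in probes. The receptor genes Itgb3 (-0.61 ± 0.19, adjusted p = 0.0107) and Gp1ba (-0.63 ± 0.19, adjusted p = 0.00886) differed the other way, with all 6 neutron mice below all 6 x-ray mice, as in 12.9% of all genes. With the probes used, both were negative under each of the 4 scalings. The second Itgb3 probe did not share this direction. Against the controls of day 7 it gave 1.08 ± 0.43 after 1 Gy of neutrons and 0.94 ± 0.53 after 4 Gy of x-rays.

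Between 4 and 1 Gy of x-rays on day 7, Gp1bb was higher after the larger dose. It was at 2.37, 1.89, 2.22, 2.49 and 0.74 in mice 1 to 5 of the 1 Gy group, and all 6 mice of the 4 Gy group lay above them. The difference was 1.44 ± 0.33 (adjusted p = 0.00867), the 1 member called, against 9.54% of all genes. Itgb3 (1.03 ± 0.28, adjusted p = 0.019) and Gp1ba (1.00 ± 0.27, adjusted p = 0.0204) also had every mouse of the larger dose above every mouse of the smaller, so that 3 of 9 genes did, against 6.34% of all genes. The Gp1bb call was lost without mouse 1, 2, 3, 4 or 5 of the 4 Gy group or without mouse 2 or 3 of the 1 Gy group, with values between 1.14 and 1.58. No member was called between 1 Gy of neutrons and 1 Gy of x-rays (23% of all genes). There Pf4 (0.70 ± 0.23, adjusted p = 0.0209) and Gp1bb (0.90 ± 0.33, adjusted p = 0.0345) had an adjusted p below 0.05. Of all 10863 genes tested, 3829 did so in that direction. All 9 members were positive on the array median scale, 5 with quantile normalization and 0 with the spike-in probes (median -0.43). No member was called between 1 and 0.25 Gy of neutrons (31.1%). There Pf4 (0.61 ± 0.21, adjusted p = 0.0289), Gp1ba (0.59 ± 0.19, adjusted p = 0.0225) and Itgb3 (0.51 ± 0.20, adjusted p = 0.0456) had an adjusted p below 0.05, against 3579 of all genes in that direction. In Pf4 and Itgb3 all 6 mice of the larger neutron dose lay above every mouse of the smaller, as in 22.6% of all genes, and with the spike-in probes Pf4 (-0.33), Gp1ba (-0.35) and Itgb3 (-0.43) were negative, as Pf4 (-0.49) and Itgb3 (-0.18) were with quantile normalization.

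Other genes of the platelet were followed in 3 lists of 19 surface receptors, 17 granule genes and 16 genes of signalling and the cytoskeleton, of which 17, 13 and 15 were tested, and in a list of 12 regulators of the megakaryocyte, of which 11 were tested. On day 1 after 1 Gy of neutrons, 10 of the 45 tested platelet genes were called higher, against 6.96% of all genes, and 1 lower, 44 of 45 were positive, and their median was 1.10. After 4 Gy of x-rays 9 of 45 were called higher, against 16.5% of all genes, and 1 lower (43 positive, median 1.00). After 1 Gy of x-rays 4 were called higher, against 3.09% of all genes, and 0 lower (44 positive, median 0.81). After 0.25 Gy of neutrons 0 were called on day 1 (40 positive, median 0.29). On day 3 after 1 Gy of x-rays 7 were called higher, against 1.53% of all genes, and 0 lower, 43 were positive and the median was 1.07, while after 0.25 Gy of neutrons 0 were called (median 0.26). These medians stayed positive under the 4 scalings.

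**Figure D4:**
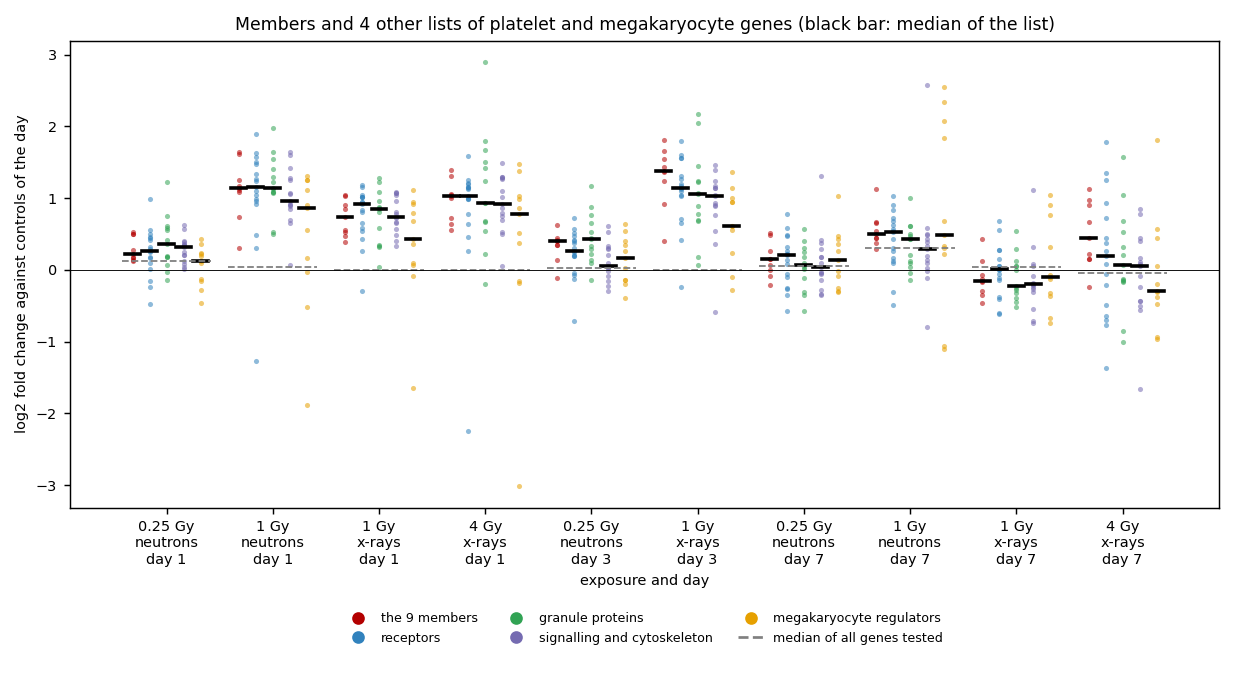
Log2 fold change (vertical axis) of each gene (points) of the 9 members, the 3 other platelet lists and the megakaryocyte regulators in each comparison with the controls (horizontal axis), on the array median scaling; black bars are list medians and dashed lines the median of all genes tested. On day 1 the platelet bars lie well above the dashed lines after 1 Gy of neutrons and after x-rays. On day 3 they do so after 1 Gy of x-rays. On day 7 most lie nearer to the lines, but after 4 Gy of x-rays the bar of the members is at 0.45 against -0.04. With the spike-in probes the median of the 45 genes turns negative after neutrons on day 7.

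Among the granule genes, Pdgfa, a platelet growth factor, rose on day 1 after 1 Gy of neutrons (1.64 ± 0.35, adjusted p = 0.00351), 4 Gy of x-rays (1.67 ± 0.29, adjusted p = 0.000443) and 1 Gy of x-rays (1.28 ± 0.27, adjusted p = 0.00922). F5, coagulation factor V, rose after 1 Gy of neutrons (1.55 ± 0.26) and 4 Gy of x-rays (1.80 ± 0.24), as did Clu, which encodes clusterin (1.30 ± 0.26 and 1.51 ± 0.23). Thbs1, which encodes thrombospondin, rose after 1 Gy of neutrons (1.41 ± 0.30) on day 1 and after 1 Gy of x-rays on day 3 (2.17 ± 0.39, adjusted p = 0.0377). F13a1, the A subunit of factor XIII (2.05 ± 0.34), and Rab27b, a regulator of granule release (1.23 ± 0.27), also rose after 1 Gy of x-rays on day 3. Sparc rose after 4 Gy of x-rays on day 1 (2.90 ± 0.56).

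Of the surface receptors, P2ry1, an ADP receptor, rose on day 1 after 1 Gy of neutrons (1.48 ± 0.28), 4 Gy of x-rays (1.59 ± 0.34) and 1 Gy of x-rays (1.18 ± 0.27). P2ry12, the other ADP receptor, rose after 1 Gy of neutrons (1.57 ± 0.30), and Clec1b, the podoplanin receptor, after 4 Gy of x-rays on day 1 (1.25 ± 0.27) and 1 Gy of x-rays on day 3 (1.13 ± 0.25). F2rl2, a thrombin receptor, rose after 1 Gy of x-rays on day 3 (1.56 ± 0.31). The thromboxane receptor gene Tbxa2r was the exception. It fell by 1.27 ± 0.22 after 1 Gy of neutrons and by 2.24 ± 0.24 after 4 Gy of x-rays on day 1, and by 0.70 ± 0.14 after 4 Gy of x-rays on day 7.

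In the signalling list, Ptgs1, which encodes cyclooxygenase 1, rose on day 1 by 1.65 ± 0.30 after 1 Gy of neutrons and 1.49 ± 0.30 after 4 Gy of x-rays, and Tbxas1, thromboxane synthase, rose on that day by 1.60 ± 0.28 after 1 Gy of neutrons and 1.09 ± 0.23 after 1 Gy of x-rays. Pla2g4a, the phospholipase that frees arachidonic acid, rose after 1 Gy of neutrons (1.28 ± 0.24), 1 Gy of x-rays (1.08 ± 0.22) and 4 Gy of x-rays (1.29 ± 0.29) on day 1 and after 1 Gy of x-rays on day 3 (1.40 ± 0.28). Alox12, the platelet lipoxygenase, rose on day 3 after 1 Gy of x-rays as well (1.46 ± 0.28), and Arhgap6 rose after 4 Gy of x-rays on day 1 (1.10 ± 0.25).

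On day 7 few of these genes were called. After 1 Gy of neutrons it was 1 of 45, against 25.1% of all genes called higher, namely Gnaz, a G protein subunit of platelets (2.58 ± 0.32), and the median of the 45 genes was 0.39 with the array median, -0.01 with quantile normalization and -1.62 with the spike-in probes. After 4 Gy of x-rays Thbs1 (1.57 ± 0.35) and Tgfb1 (1.04 ± 0.19) rose, against 9.06% of all genes, while Tbxa2r and Gng11, another G protein subunit (-1.65 ± 0.36), fell. The median was 0.08. After 1 Gy of x-rays and 0.25 Gy of neutrons 0 of 45 were called, against 3.29% and 0.0276% of all genes called higher, with medians of -0.12 and 0.10. Tgfb1 also differed between the controls of day 7 and day 1 (-0.78 ± 0.18, adjusted p = 0.019), which were scanned on different dates.

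The regulators did not follow the platelet genes. Lmo2, a partner of GATA1 in the erythroid and megakaryocyte lineages, fell on day 1 by 1.89 ± 0.37 after 1 Gy of neutrons, by 1.64 ± 0.21 after 1 Gy of x-rays and by 3.02 ± 0.23 after 4 Gy of x-rays. Tal1, a transcription factor of the same complex, rose after 4 Gy of x-rays on day 1 (1.48 ± 0.32) and after 1 Gy of x-rays on day 3 (1.00 ± 0.21). On day 7 after 1 Gy of neutrons, Zfpm1 (2.34 ± 0.23), Lmo2 (2.08 ± 0.24) and Gata1 (1.84 ± 0.25) were among the regulators called higher, as 25.1% of all genes were. Fli1, an ETS factor of megakaryocytes (-1.06 ± 0.20), was called lower. After 4 Gy of x-rays on day 7 Zfpm1 rose (1.82 ± 0.19) and Fli1 (-0.96 ± 0.22) and Meis1 (-0.94 ± 0.21) fell. The median of the 11 regulators after 1 Gy of neutrons on day 7 was 0.48 with the array median and -1.57 with the spike-in probes. The median of all genes was 0.31 and -1.74 on these scales, so the size of each rise there depends on the scaling.

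Markers of other blood cells moved in the same samples. Of the 7 tested B cell markers, 7 were called lower after 1 Gy of neutrons on day 1 (median -2.61), 7 after 4 Gy of x-rays on day 1 (median -4.18) and 5 after 1 Gy of x-rays on day 1 (median -0.90). Of all 10863 genes tested, 1144, 2023 and 495 were called lower in these comparisons. After 1 Gy of x-rays on day 3 the median of the B cell markers was -1.01 and 0 of them were called, against 1.91% of all genes. The summed level of these markers on day 1 was 7.02 to 7.84 in the controls, 3.70 to 5.73 after 1 Gy of neutrons and 2.65 to 4.54 after 4 Gy of x-rays, and on day 3 it was 7.46 to 7.97 in the controls and 6.02 to 7.37 after 1 Gy of x-rays. Of the 8 neutrophil markers 0 were called in these 4 comparisons (medians 0.52, 0.56, -0.04 and 0.42), against 17.5%, 35.1%, 7.65% and 1.91% of all genes. Each array was centred on its own median, to which transcripts of these cells contribute, and their part in the platelet values was not tested.

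On day 1 the erythroid markers, which share regulators with the megakaryocyte, went another way than the platelet genes. Of 10 tested, 2 were called lower after 1 Gy of neutrons on day 1 (median -1.47), 6 after 1 Gy of x-rays (median -1.77) and 5 after 4 Gy of x-rays (median -2.70). Of all 10863 genes tested, 1144, 495 and 2023 were called lower in the same comparisons. On day 3 the erythroid values were mostly positive, with 1 of 10 called higher, against 1.53% of all genes, 8 positive and a median of 1.06 after 1 Gy of x-rays, and 2 of 10 called higher, against 0.543% of all genes, with a median of 0.89 after 0.25 Gy of neutrons. On day 7 after 1 Gy of neutrons 10 of 10 erythroid markers were called higher, against 25.1% of all genes (marker median 2.82, and 0.78 with the spike-in probes). Their part in the day 7 values of the regulators Gata1, Zfpm1 and Lmo2, which erythroid cells also express, was not tested. Hepatocyte transcripts were present in some samples, with 4 of 12 markers tested. Their summed level was 4.22 to 10.4 in the controls of day 1, 5.44 to 11.2 after 1 Gy of neutrons, 11.1 to 11.7 after 4 Gy of x-rays, and on day 3 4.60 to 10.03 in the controls and 5.83 to 10.1 after 1 Gy of x-rays. On day 1, 1 of the 4 was called higher after 4 Gy of x-rays, against 16.5% of all genes. Alb, the albumin gene of hepatocytes, was well above background on 55 of the 72 arrays. The part of these transcripts in the platelet values was not tested.

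The 9 genes varied together between mice of the same group. Over 72 arrays, with the group mean taken off each value, the 36 pairs of members had Pearson correlations between 0.66 and 0.95 (median 0.88). Each member was also set against the mean of the other 8. This correlation was lowest for Pf4, at 0.81, and highest for Gp6, at 0.96. Before the group means were taken off it was 0.57 for Pf4. These correlations are descriptions, since the arrays share their platform and centring.

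The mean level of the 9 genes showed which mice were low. After 1 Gy of neutrons on day 1 it was 4.69 to 6.57 (median 6.01) and after 4 Gy of x-rays 4.66 to 6.16 (median 5.97), against 4.30 to 5.22 in the controls. After 1 Gy of x-rays on day 3 it was 4.72 to 6.09 (median 5.81), above all controls of that day. On day 7 it was 4.23 to 4.79 (median 4.72) after 1 Gy of neutrons, 4.05 to 5.17 (median 4.58) after 4 Gy of x-rays and 2.81 to 4.53 (median 4.22) after 1 Gy of x-rays, and all of these overlapped the controls at 2.85 to 4.79.

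Of 15339 genes, those outside the 9 whose deviations from the group means were most like the mean of the members were Parvb (0.973), Gp5 (0.968), Ly6g6c (0.961), Mrvi1 (0.958), Mmrn1 (0.957), Myl9 (0.956), Cd151 (0.955), Mpig6b (0.949), Rhoj (0.948) and Pdlim7 (0.948). Gp5, Mmrn1, Myl9 and Mpig6b are among the other platelet genes listed here. Gp5 encodes a further part of the von Willebrand factor receptor complex and Mmrn1 encodes multimerin, a granule protein. The regulator Tal1 followed the members at 0.91 and Gata1 at 0.86. Tbxa2r (0.19), Selp (0.03), Sparc (-0.47), F5 (0.45), Lmo2 (0.40), Zfpm1 (0.24) and Gnaz (0.48) were among the genes that followed them less, although they were listed as platelet or megakaryocyte genes. Clu was at 0.65. Of these, Tbxa2r, Sparc, F5, Lmo2, Zfpm1, Gnaz and Clu also had called changes described above. B cell markers lay between -0.17 and 0.20.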

How the data were processed

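Blood RNA of 72 mice was hybridised, 1 mouse per array, to Agilent one-colour mouse 4x44K v2 arrays. The authors extracted the deposited intensities with Agilent Feature Extraction 12.0.2, which subtracts background. The deposited series table holds log2 normalized values, but only 12 of its 72 columns followed the array of their own sample, so it was an alternative for 1 comparison alone (0.25 Gy neutrons, day 1, 5 against 5 mice). The scale of that table is taken from its values, with column medians of 8.27 to 8.37, and its centring is not given in the sources used here.

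Working from the intensities, non-uniform spots and population outliers were dropped and replicate spots of a probe were averaged. Probes were kept when under 25% of the arrays of days 1 and 7 were flagged or not well above background (19808 probes) and when 20% of those arrays differed 1.5-fold from the probe median (12556 probes). The median over the detected probes was subtracted on every array, and the brightest probe stood for a gene. Groups were compared with limma 3.58.1 in R 4.3.3 (2-sided, the compared groups alone), where the study's methods name a random variance test, which was an alternative. Changes between days were fitted as an interaction. The scripts were tested on simulated data. Per the methods, neutron mice were exposed several at a time on a rotating wheel. Which mice shared a run or a cage is not given in the sources used here, so p-values measure only the spread between these mice. The number of arrays limits the precision.

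The 9 genes and the lists were chosen with earlier results of these data known. The text names the 9 members in every comparison with controls, up to 4 called genes of each other platelet list with the largest change per comparison, the markers a result is set beside, and the 10 genes most like the members. Some genes that fall under this rule are not reported here. Other settings are in the closing section: normexp background correction with an offset of 50, 75th percentile, quantile and spike-in scaling, other filters, the mean of the probes of a gene, scan date (7 dates), slide (19 slides) and replicate number as blocks, and each mouse left out.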

Additional observations from a re-analysis of the deposited data

Results flagged for a closer look

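In 117 sets of 1 gene in 1 group of 4 to 10 mice, the gap between the lowest or highest mouse and its neighbour was compared with the range of the group (Dixon's ratio). In 9 sets the ratio passed its critical value, in 5 mice, and chance gives about 1 in 20. Mouse 5 of the 1 Gy x-ray group of day 7 was lowest for Itgb3 (ratio 0.878) and Gp1ba (0.797). Mouse 2 of the 0.25 Gy neutron group of day 7 was lowest for Gp1bb (0.772), Ppbp (0.724) and Gp9 (0.711). Mouse 4 of the 1 Gy neutron group of day 7 was lowest for Gp9 (0.945) and Tubb1 (0.722). Mouse 3 of the 1 Gy neutron group of day 1 was lowest for Ppbp (0.67), and control mouse 4 of day 1 was highest for Tubb1 (0.835). Since the 9 genes vary together between mice, these flags are not independent.

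The effect of 1 Gy of x-rays on Gp1bb differed between days by the interaction test, being lower on day 7 than on day 3 by -2.27 on the log2 scale (adjusted p = 0.0327). On both days the irradiated mice shared no scan date with their controls.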

How the results depend on the processing

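The random variance test named in the study's methods gave the same counts as limma in all 10 comparisons with controls. Counts below are of the 9 platelet genes, first those called and then, where given, those with an adjusted p below 0.05. The normexp correction gave 0 and 0 for 1 Gy of x-rays on day 3 and for 1 Gy of neutrons on day 7, where Pf4 turned to -0.38, and adjusted p counts of 1 for 1 Gy of neutrons, 0 for 1 Gy and 0 for 4 Gy of x-rays on day 1, and 0 for 4 Gy of x-rays on day 7. The 75th percentile gave 0 and 0 for 1 Gy of x-rays on day 3 and for 1 Gy of neutrons on day 7, and an adjusted p count of 2 for 4 Gy of x-rays on day 1. Quantile normalization gave 2 and 2 for 1 Gy of x-rays on day 3, 0 and 0 for 1 Gy of neutrons on day 7 (Pf4 at -0.32), and 1 called for 4 Gy of x-rays on day 7. It gave 1 called for the change of the 1 Gy neutron effect from day 1 to 7, 4 for 1 Gy of neutrons against 4 Gy of x-rays on day 7 (Pf4 at -1.03) and 2 for 4 against 1 Gy of x-rays on day 7.

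Centring on the 232 spike-in spots moved most counts. It gave 8 called for 1 Gy of neutrons and 3 for 4 Gy of x-rays on day 1, an adjusted p count of 0 for 1 Gy of x-rays on day 1, and 0 and 0 for that dose on day 3. On day 7 it gave 8 and 9 for 1 Gy of neutrons, all lower (Pf4 at -0.92), 2 for 0.25 Gy of neutrons, both lower, and 3 for 4 Gy of x-rays. It gave 9 and 5 for the changes from day 1 to 7 of the 1 Gy neutron and 1 Gy x-ray effects, all lower, 0 for the 1 Gy x-ray change from day 3 to 7, 5 for 1 against 0.25 Gy of neutrons on day 1, and on day 7 9 for 1 Gy of neutrons against 4 Gy of x-rays (Pf4 at -1.31) and 7 for 4 against 1 Gy of x-rays.

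Without the detection filter the counts were 0 and 0 for 1 Gy of x-rays on day 3 and for 1 Gy of neutrons on day 7, and the adjusted p count was 0 for 1 Gy of x-rays on day 1. With spots not well above background set to missing, 1 Gy of neutrons on day 7 gave 0 and 0. With the mean of the probes of a gene, adjusted p counts were 1 for 1 Gy of x-rays on day 1 and 1 for 4 Gy of x-rays on day 7. With slide as a random block, 5 were called for 1 Gy of neutrons on day 1, 7 with 8 for 1 Gy of x-rays on day 3 and 0 for 1 Gy of neutrons on day 7. With scan date as a random block, 1 Gy of x-rays gave 8 and 9 on day 3. Both random blocks, and leaving out the arrays of the last scan date, gave an adjusted p count of 0 for 1 Gy of x-rays on day 1. With scan date as a fixed block, 1 Gy of neutrons on day 7 gave 0 and 0. A scan date block could not be fitted for 0.25 Gy of neutrons on days 1 and 7, which were scanned on 1 date.

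Replicate numbers are shared between groups. Deviations of same-numbered mice correlated above 0.1 in 20 of 52 pairs (-0.56 to 0.653) and in every pair of 0 of 10 comparisons, so that the mice share only a number. With the replicate number as a block, 1 Gy of x-rays on day 1 gave 1 called and 4 with an adjusted p below 0.05, and 1 Gy of neutrons on day 7 gave 0 called (Pf4 at 1.12).

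With each mouse left out in turn, called genes ranged from 0 to 5 for 1 Gy of neutrons, 0 to 2 for 1 Gy and 0 to 2 for 4 Gy of x-rays on day 1, 0 to 7 for 1 Gy of x-rays on day 3, and on day 7 0 to 1 for 1 Gy of neutrons and 0 to 1 for 4 Gy of x-rays. Adjusted p counts ranged from 5 to 9, 0 to 5 and 4 to 9 in the same order on day 1, 0 to 8 on day 3, and 1 to 3 and 2 to 3 on day 7. The count was 1 throughout for 1 Gy of neutrons against 4 Gy of x-rays on day 7, 0 to 1 for 4 against 1 Gy of x-rays, and 0 to 2 for the change of the 1 Gy x-ray effect from day 3 to 7. The causes of these differences were not tested. Calls at 1 Gy of x-rays on day 3 lie close to the adjusted threshold, and low signal on the day 7 arrays of 1 Gy of neutrons limits every value there.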
